A study of Mus musculus with 12 samples.

Results

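The histone genes of the mouse liver were described here in 2 groups, the genes of the histone clusters and the replication-independent genes outside them. The members were the protein-coding genes of the GENCODE M21 annotation (GRCm38) whose symbols begin with Hist1h to Hist4h, H2af, H3f3, H1f0 or H1fx. This rule found 80 genes, of which 67 were cluster genes and 13 were replication-independent, and it used no measured value. The count table listed 27022 genes, and 63 of them were members, with 53 cluster genes and 10 replication-independent genes. The other 14 cluster genes and 3 replication-independent genes of the annotation (the H2afb genes) were not analysed here.

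The livers came from 6 female SJL/J mice aged 11 weeks, and 3 livers were taken from each diet. Each diet was fed to 1 cage, which held 4 mice. Diet and cage therefore cannot be told apart. The control mice ate an AIN-93G diet with 50 ppm iron from 3 weeks of age, and the iron-loaded mice ate a diet with 2% carbonyl iron from 6 weeks of age. All mice were fasted from the morning and their livers were perfused. Each RNA was made into 1 Trad-KAPA library, in which poly(A) RNA is captured and fragmented along its whole length (KAPA Stranded mRNA-Seq), and 1 3’-LEXO library, in which reverse transcription is primed on the poly(A) tail (Lexogen QuantSeq 3’ FWD), and the pair of libraries from a mouse carry its number. The 6 Trad-KAPA libraries held 13834682 to 16553616 counted reads and the 6 3’-LEXO libraries held 10724672 to 14104236. All 6 hepatocyte markers looked up, albumin among them, were read in every group, at a sum of 45636 to 155285 CPM in a library, where CPM is a count scaled to 1000000 counted reads.

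Histones are the proteins around which DNA is wound, and H2A, H2B, H3 and H4 form the nucleosome core while H1 binds the linker DNA. The cluster genes are expressed when DNA is replicated, and most of their mRNAs end just after a short stem-loop that is bound by SLBP, with no poly(A) tail. Some cluster genes also give longer polyadenylated transcripts, as has been described for cells that have stopped dividing. The replication-independent genes encode variants that are laid down throughout the cell cycle, such as H3.3 and H2A.Z, and their mRNAs are polyadenylated. Both kits use oligo-dT, either to capture the RNA or to prime its copying.

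The stem-loop marks the end at which a tailless histone mRNA is cut, and it is shown for 8 cluster genes on which the results turn and for the replication-independent gene that also has it. The motif searched was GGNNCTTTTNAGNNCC, read on the transcript strand only. The 16 bases that match it are in capitals, and the 5 bases on each side are in lower case. The sequences were read from the GENCODE M21 transcripts and the positions are those of the 16 bases in GRCm38.
Hist1h1c (chr13:23739512-23739527, + strand): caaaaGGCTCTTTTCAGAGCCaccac
Hist1h1e (chr13:23621782-23621797, − strand): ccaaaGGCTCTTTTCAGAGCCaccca
Hist3h2a (chr11:58955172-58955187, + strand): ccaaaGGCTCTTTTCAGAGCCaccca
Hist2h3c2 (chr3:96238485-96238500, − strand): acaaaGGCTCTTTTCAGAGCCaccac
Hist1h4c (chr13:23698089-23698104, − strand): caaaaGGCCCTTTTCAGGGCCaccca
Hist1h4h (chr13:23531458-23531473, + strand): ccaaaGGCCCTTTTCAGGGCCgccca
Hist4h4 (chr6:136803998-136804013, − strand): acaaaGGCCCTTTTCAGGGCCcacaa
Hist1h4i (chr13:22040966-22040981, − strand): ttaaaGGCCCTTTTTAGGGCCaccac
H2afx (chr9:44335240-44335255, + strand): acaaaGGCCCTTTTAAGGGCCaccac
The H1, H2A and H3 genes shown share the form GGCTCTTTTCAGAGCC, and the H4 genes shown and H2afx have GGCCC on the 5′ arm and GGGCC on the 3′ arm. The form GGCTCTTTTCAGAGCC was found in 26 members, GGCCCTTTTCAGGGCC in 7 and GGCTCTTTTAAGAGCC in 6, and 4 other forms were found in 1 or 2 members each. The motif was present in 44 of the 67 cluster genes (65.7%) and in 33 of the 21871 other protein-coding genes (0.151%). No match says only that these letters are not in the annotated transcript, and 13 of the 23 cluster genes without a match have a model that ends at the stop codon.

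The annotated transcripts of the cluster genes fell into 3 classes by where they end. In 22 genes the transcript ended 3 to 74 bases after the stem-loop, in 22 it ran on for 151 to 4884 bases, and in 23 no stem-loop was found. The sequence AATAAA or ATTAAA, the signal for cleavage and polyadenylation, was found in the last 50 bases of 11 genes of the extended class, 2 of the class that ended at the stem-loop and 4 of the class without one. All 10 listed replication-independent genes had it. The cluster genes lay in the Hist1 locus (chr13:21715763-23934851, 54 genes), the Hist2 locus (chr3:96219865-96270132, 10 genes), the Hist3 locus (chr11:58948920-58956830, 2 genes) and at Hist4h4 (chr6:136801553-136804415). All but 3 of the 53 listed cluster genes had 1 exon.

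The cluster genes gave few reads in either kit, and a pair of them carried most of these reads. Over the 6 Trad-KAPA libraries the 53 cluster genes had 7240 reads, at 82.8 ± 12.3 CPM (SD, n = 6), and over the 6 3’-LEXO libraries they had 18340 reads, at 237.4 ± 34.0 CPM. The 10 replication-independent genes had 34541 and 59867 reads, at 393.2 ± 41.0 and 781.3 ± 84.7 CPM. Hist1h2bc, an H2B gene, and Hist1h1c, which encodes the linker histone H1.2, took 82.4% to 94.0% of the cluster reads of a Trad-KAPA library and 74.0% to 87.4% of those of a 3’-LEXO library. In a Trad-KAPA library 15 to 27 of the 53 cluster genes had at least 1 read, and in a 3’-LEXO library 25 to 36 had one, with more in the 3’-LEXO library of each of the 6 mice. The difference was 11.8 ± 3.7 genes per mouse (SD, n = 6), and it was 3.0 ± 3.4 genes when at least 5 reads were asked for. Of the 53 genes, 19 had no read in any Trad-KAPA library and 3 had none in any 3’-LEXO library. A count of 0 over a group of libraries still allows up to 3 reads, and this limit covers counting error only.

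The reads are given here by the annotated end of the transcript. The 17 listed genes whose transcripts end at the stem-loop had 41 reads in the 6 Trad-KAPA libraries and 357 in the 6 3’-LEXO libraries. The 20 listed genes of the extended class had 3647 and 11361 reads, of which Hist1h1c gave 3144 and 8547. The 16 listed genes without a stem-loop in the model had 3552 and 6622 reads, of which Hist1h2bc gave 3298 and 6224. Of the genes that passed the expression filter of the kit comparison, 9 were from the extended class, 2 had no stem-loop in the model (Hist1h2bc and Hist2h2be), and 1, Hist1h4h, had a transcript that ends at the stem-loop. By the poly(A) signal, the 14 listed cluster genes with AATAAA or ATTAAA had 3742 and 10916 reads and the 39 without had 3498 and 7424, most of the latter from Hist1h2bc, whose model of 1156 bases has neither.

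**Figure D1:**
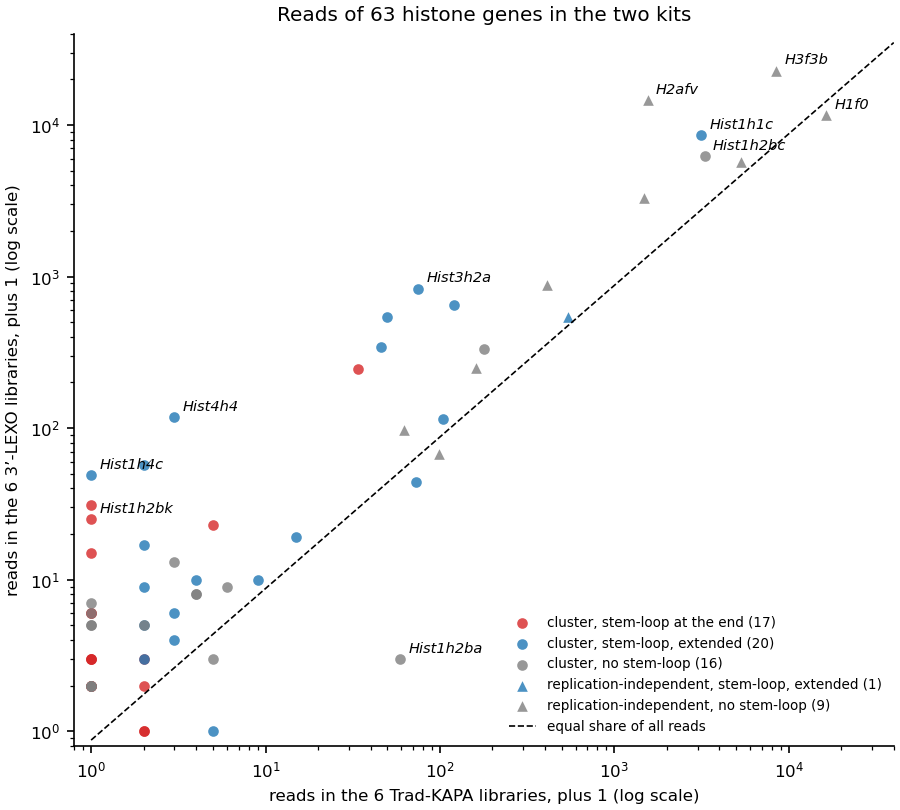
Reads of each of the 63 listed histone genes summed over the 6 Trad-KAPA libraries (x axis) and the 6 3’-LEXO libraries (y axis), each plus 1 on a log scale, with circles for cluster genes, triangles for replication-independent genes and colours for the annotated end of the transcript. Most cluster genes lie above the dashed line of equal shares and at the lower left, Hist1h4c (0 and 48 reads) and Hist4h4 (2 and 117 reads) lie far above the line, and Hist1h2ba (58 and 2 reads) lies far below it.

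The comparison of the kits asked how many reads the same RNA gave each gene in each preparation. All 12 libraries were fitted with edgeR's quasi-likelihood F test, and p-values were adjusted by Benjamini-Hochberg over the 14384 genes that passed the filter, of which 76.5% were called at 0.05, 38.8% higher and 37.6% lower in 3’-LEXO. This fit had no term for the mouse, although both libraries of a mouse come from the same RNA, and a fit with the mouse as a block was an alternative. Of the 12 cluster genes tested, 10 were higher in 3’-LEXO and 0 were lower, and DESeq2 without that filter called 16 of the 53. The share of all genes called by DESeq2 is not given here, so its count is a description. A gene that passed the filter only because it was high in 3’-LEXO had to differ. Of the 10 called, Hist4h4, Hist1h4c, Hist1h1e, Hist1h4h and Hist2h3c2 passed the filter within the 3’-LEXO libraries but not within the Trad-KAPA libraries, so their calls are no support for a difference and their values are a description. The count also says nothing of the 41 cluster genes that did not pass. These 41 had 122 Trad-KAPA reads and 306 3’-LEXO reads, and 36 of them had the larger share of reads in 3’-LEXO and 5 in Trad-KAPA.

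Hist4h4, an H4 gene whose transcript of 2863 bases runs on for 2445 bases past its stem-loop, had 0, 1 and 1 reads in the Trad-KAPA libraries of control mice 1 to 3 and 0 in those of all 3 iron-loaded mice. Its 3’-LEXO counts were 44, 27 and 24 in the control mice and 4, 5 and 13 in the iron-loaded mice. The kits did not overlap, and the pooled ratio of CPM was 66.9, with an exact 95% binomial interval of 18.1 to 559 that covers counting error only. Hist1h4c, another H4 gene of the extended class, had 0 reads in all 6 Trad-KAPA libraries, and its 3’-LEXO counts were 17, 11 and 14 in the control mice and 1, 1 and 4 in the iron-loaded mice. With the limit of 3 reads for the group of Trad-KAPA libraries it was at least 18.3-fold higher in 3’-LEXO. In both genes every control 3’-LEXO count was above every iron-loaded one.

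Hist3h2a, an H2A gene, had 10 to 16 reads in each Trad-KAPA library and 99 to 181 in each 3’-LEXO library, a log2 change of 3.64 ± 0.16 (SE; adjusted p = 1.6e-10, edgeR). Its 6 values per kit did not overlap, and it was higher in 3’-LEXO in 6 of 6 mice. It overlaps Trim17 on the same strand, which had 3 reads or fewer in each library. Hist1h1e, which encodes the linker histone H1.4, had 4 to 12 reads in each Trad-KAPA library and 50 to 143 in each 3’-LEXO library, a log2 change of 3.66 ± 0.24. The 3′ part of its single exon overlaps an exon of Hist1h2be on the same strand, and 32.0% of the 50-base windows of its transcripts occur in transcripts of other genes, so reads could be split between them. Hist1h2be had 2 to 24 reads in Trad-KAPA and 3 to 13 in 3’-LEXO and did not pass the test (log2 change −0.28 ± 0.48, adjusted p = 0.60, edgeR).

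The other cluster genes tested had smaller differences or more spread. The H3 gene Hist2h3c2 had 2 to 12 reads per Trad-KAPA library and 30 to 122 per 3’-LEXO library (log2 change 3.03 ± 0.36), and 63.5% of its 50-base windows are shared with other genes, among them Hist2h3c1. Hist1h4h, the H4 gene that ends at its stem-loop but has a poly(A) signal, had 0 to 8 reads and 14 to 80 reads (3.07 ± 0.51). Hist1h4i, an H4 gene, had 5 to 35 and 42 to 283 reads (2.54 ± 0.32). Each of these 3 genes had its lowest 3’-LEXO count above its highest Trad-KAPA count. Hist1h1c had 347 to 781 reads in Trad-KAPA and 1040 to 2202 in 3’-LEXO (1.64 ± 0.15), with no overlap. Hist1h2bc had 409 to 751 and 604 to 1657 reads (1.09 ± 0.15), and its counts overlapped between the kits. Its CPM did not overlap, at 27.9 to 54.3 in Trad-KAPA and 54.9 to 118.6 in 3’-LEXO. The H2B gene Hist2h2be changed by 1.10 ± 0.23, and the H4 gene Hist2h4 did not pass the test (0.33 ± 0.42, adjusted p = 0.48, edgeR).

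Hist1h2ba, which encodes a testis-specific H2B, was the cluster gene that stood lowest in 3’-LEXO, and it is named here because its counts were seen to differ. It had 14, 10 and 12 reads in the Trad-KAPA libraries of the control mice and 8, 7 and 7 in those of the iron-loaded mice, and in 3’-LEXO it had 1 read in control mouse 3, 1 read in iron-loaded mouse 3 and 0 in the others. All Trad-KAPA libraries had more reads than any 3’-LEXO library. The pooled ratio of CPM in 3’-LEXO to Trad-KAPA was 0.0394 (exact 95% binomial interval 0.00466 to 0.149, counting error only). The gene did not pass the filter, and without the filter edgeR gave a log2 change of −4.25 (adjusted p = 3.5e-08). Its annotated transcript of 384 bases ends at the stop codon, and 38.2% of its 50-base windows occur in other genes.

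Of the 10 replication-independent genes, 7 were higher in 3’-LEXO, 1 was lower and 2 did not pass the test, with a median log2 change of 0.84 against 0.018 for all genes. The share called was thus near the 76.5% of all genes tested, and the share called higher stands beside 38.8%. Of the 7, H2afy2 passed the filter within the 3’-LEXO libraries but not within the Trad-KAPA libraries, so its call is no support for a difference. H2afv, which encodes an H2A.Z (chr11:6427229-6444443, − strand), had 155 to 331 reads in Trad-KAPA and 1653 to 3359 in 3’-LEXO. This log2 change of 3.42 ± 0.17 (adjusted p = 5.3e-10, edgeR) lay between those of Hist3h2a and Hist1h4h, and every 3’-LEXO library was above every Trad-KAPA library. H2afz, which encodes the other H2A.Z, had 22 to 36 reads in Trad-KAPA and 10 to 66 in 3’-LEXO, so that the kits overlapped. Its log2 change was 0.79 ± 0.31 (adjusted p = 0.032, edgeR), and the call was lost without control mouse 1, 2 or 3 or iron-loaded mouse 2 or 3, with the log2 change between 0.49 and 0.97 over the 6 mice left out. With the mouse as a block the log2 change of H2afz was 0.75 ± 0.23 (adjusted p = 0.0060, edgeR).

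Both H3.3 genes were higher in 3’-LEXO. H3f3b (chr11:116021912-116027962, − strand) had 1070 to 1896 reads in Trad-KAPA and 3203 to 5701 in 3’-LEXO (log2 change 1.63 ± 0.11), and H3f3a had 53 to 82 and 117 to 183 (1.29 ± 0.13). Neither gene overlapped between the kits. H2afj, which encodes H2A.J, changed by 1.34 ± 0.11, and the macroH2A genes H2afy2 and H2afy by 0.89 ± 0.26 and 0.30 ± 0.09. The H2afy2 value is a description, given how it passed the filter. H2afy lost the call without control mouse 2 or iron-loaded mouse 2 (adjusted p = 0.086 and 0.090, edgeR). With all mice and the mouse as a block its adjusted p was 0.00047 (edgeR). H1f0, which encodes H1.0, the linker histone of cells that have left the cycle (chr15:79028450-79030504, + strand), was the member with the most reads in Trad-KAPA, at 2366 to 3184, and had 1523 to 2960 in 3’-LEXO. It fell by 0.30 ± 0.11 on the log2 scale (adjusted p = 0.020, edgeR) and was lower in 3’-LEXO in 6 of 6 mice, by a log2 CPM ratio of only −0.0022 in iron-loaded mouse 1. Without iron-loaded mouse 3 the adjusted p was 0.054, and with all mice and the mouse as a block it was 0.00011 (edgeR). H2afx, which encodes H2A.X, and H1fx, which encodes H1.X, did not pass the test (0.21 ± 0.18 and 0.19 ± 0.41).

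A whole-transcript library gives more reads to a longer transcript and a 3’ library does not, and the histone genes are short. The merged exons of the 53 listed cluster genes had a median of 572 bases and those of the 10 replication-independent genes 1943 bases, against 4114 bases over all genes tested. The 231 protein-coding genes tested with under 1000 bases had a median log2 kit ratio of 1.69 above that of all genes tested, and the 287 with 1 exon a median of 0.59. With 0.5 reads added to each count, the median of the 53 listed cluster genes stood 0.78 ± 0.60 above that of all genes (SD, n = 6 mice) and that of the 10 replication-independent genes 0.92 ± 0.22. With the Trad-KAPA counts divided by the length of the merged exons these values were −1.64 ± 0.51, below 0 in 6 of 6 mice, and 0.14 ± 0.23. Many of the 53 had few or no reads, where the value rests on the reads added. The 12 that passed the filter, which have a median of 1595 bases and were in part chosen by being high in 3’-LEXO, stood at 2.29 ± 0.38 and per kb at 0.35 ± 0.27, so the sign per kb depended on which cluster genes were taken.

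On that scale the calls changed. The fit with Trad-KAPA counts per kb tested 14363 genes and called 77.7% of them, 39% higher and 38.6% lower in 3’-LEXO. Of the 12 cluster genes, 5 stayed higher, which were Hist4h4 (log2 change 5.37 ± 0.74), Hist1h4c, Hist3h2a (2.65 ± 0.16), Hist1h1e (2.53 ± 0.24) and Hist2h3c2 (0.99 ± 0.37). Of these, Hist3h2a alone had passed the filter within Trad-KAPA. Hist1h2bc (−0.79 ± 0.15) and Hist2h4 (−1.05 ± 0.42) were lower, and Hist1h1c (0.19 ± 0.15), Hist1h4i, Hist1h4h, Hist2h2be and Hist1h2be did not pass. H2afv (2.04 ± 0.16), H3f3b (1.11 ± 0.11), H3f3a (1.02 ± 0.13) and H2afy (0.98 ± 0.09) were higher, and H1fx (−1.59 ± 0.45), H2afx (−1.40 ± 0.18) and H1f0 (−1.35 ± 0.11) were lower. With the mouse as a block in this fit, Hist1h1c was also called higher (0.20 ± 0.06, adjusted p = 0.0060, edgeR) and H2afz lower (−0.51 ± 0.23, adjusted p = 0.049, edgeR). The division leaves out that the annotated length need not be the length of the transcript that the liver makes.

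**Figure D2:**
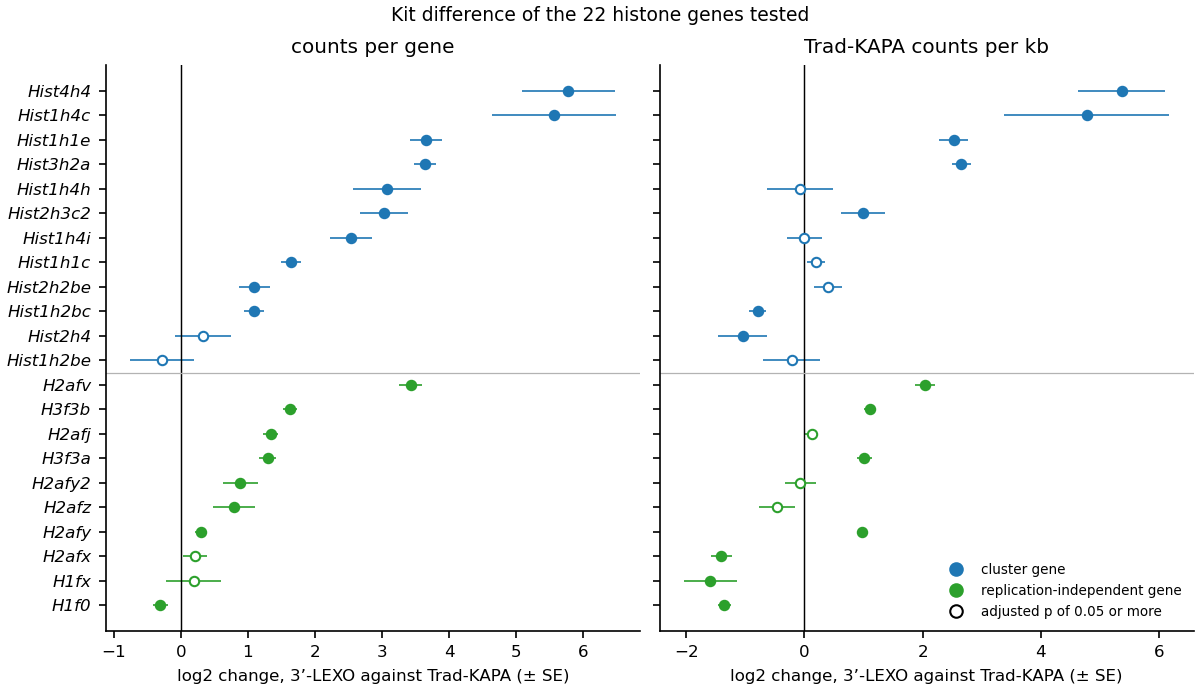
Log2 change of 3’-LEXO against Trad-KAPA with its SE for the 22 histone genes tested, from the counts per gene (left) and with Trad-KAPA counts per kb of merged exons (right), with filled points for adjusted p under 0.05. On the left 10 of the 12 cluster genes are filled and right of 0, and on the right Hist4h4, Hist1h4c, Hist1h1e, Hist3h2a and Hist2h3c2 stay right of 0 while Hist1h2bc and Hist2h4 are filled and left of it.

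Levels of different genes were ranked within each diet, in Trad-KAPA as CPM per kb of merged exons. In the control mice the order from the top was H1f0 (86.4 ± 5.1), Hist1h2bc (39.3 ± 6.7), H3f3b (27.5 ± 3.2), Hist1h1c (18.0 ± 4.3), H2afv (12.5 ± 2.0), H2afj (9.98 ± 0.37) and H2afy (9.13 ± 0.64; SD, n = 3). Of these neighbours, Hist1h1c and H2afv, and H2afj and H2afy, overlapped within their SDs and the others did not. In the iron-loaded mice the order was H1f0 (95.9 ± 12.8), H3f3b (37.6 ± 6.9), Hist1h1c (28.4 ± 6.4), Hist1h2bc (25.5 ± 1.2), H2afv (9.01 ± 1.93), H2afy (8.58 ± 1.51) and H2afj (8.33 ± 1.18). There H1f0 stood above H3f3b and Hist1h2bc above H2afv by more than the SDs, and the other neighbours overlapped.

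A 3’ library needs no division by length, and its levels were ranked in CPM. In the control mice the order was H3f3b (239.8 ± 16.96), H2afv (212.5 ± 34.9), H1f0 (128.9 ± 5.9), Hist1h2bc (94.3 ± 28.8), Hist1h1c (85.8 ± 12.9) and H2afy (77.01 ± 12.5). H2afv stood above H1f0 by more than the SDs, and the other neighbours overlapped. In the iron-loaded mice it was H3f3b (360.9 ± 68.3), H1f0 (176.6 ± 44.6), H2afv (162.4 ± 33.2), Hist1h1c (140.1 ± 25.6), H2afy (71.4 ± 8.0) and Hist1h2bc (64.1 ± 11.9). H3f3b stood above H1f0 there and Hist1h1c above H2afy by more than the SDs, and the other neighbours overlapped.

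**Figure D3:**
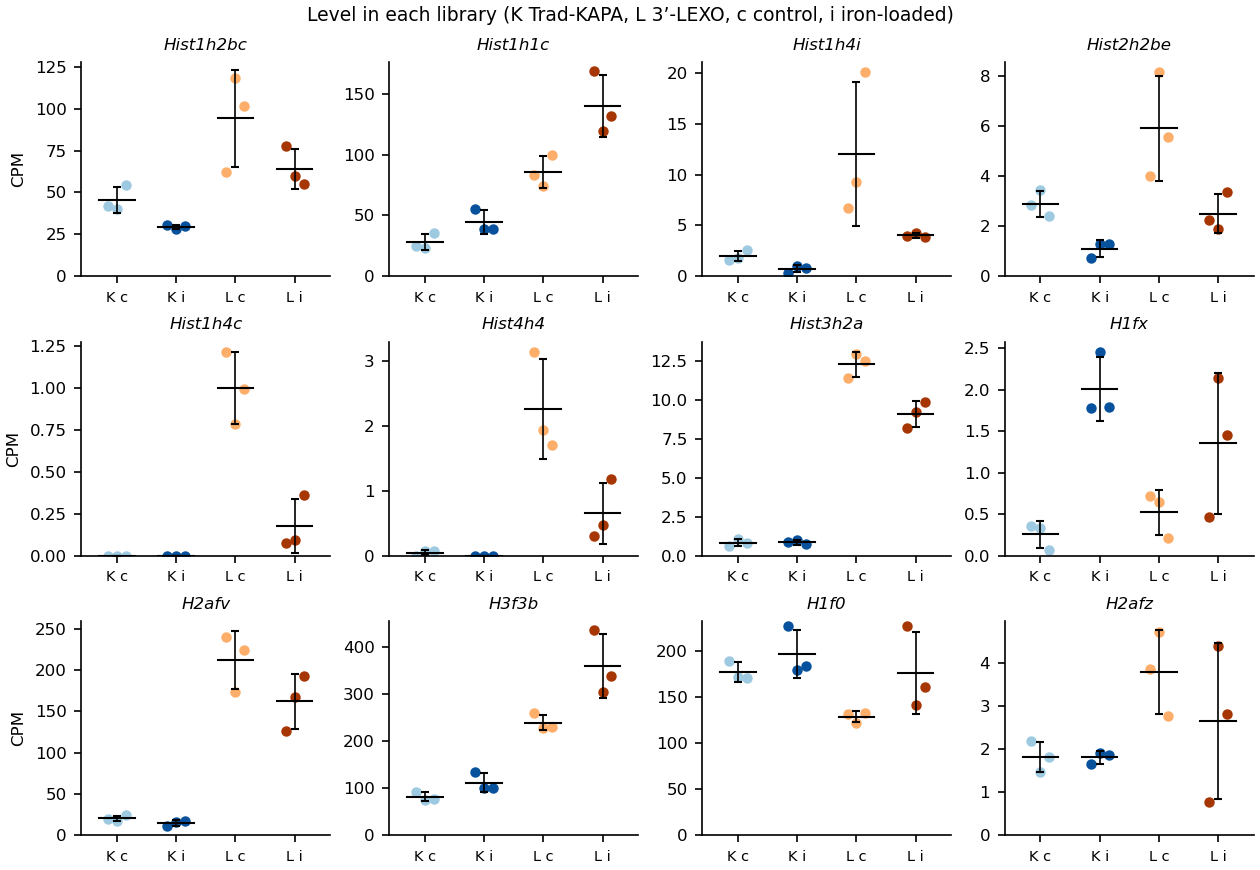
CPM of 12 histone genes in each of the 12 libraries, with points for single libraries and black lines for the mean and SD of 3 mice, on axes that start at 0 and differ between genes. The iron-loaded livers lie below the controls in both kits for Hist1h4i and Hist2h2be and above them in both kits for Hist1h1c and H3f3b. For Hist1h4c and Hist4h4 they lie below the controls in 3’-LEXO, and both genes are near or at 0 in Trad-KAPA under both diets.

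The diet comparison asked which histone genes differed between iron-loaded and control livers, and it was made within each kit. In Trad-KAPA 13151 genes were tested and 17.1% were called, 8.77% higher and 8.37% lower. Of the 6 cluster genes tested there, 3 fell and 0 rose. Of the 9 replication-independent genes tested, 1 rose and 0 fell. In 3’-LEXO 13301 genes were tested and 6.1% were called, 3.17% higher and 2.92% lower. Of 11 cluster genes tested there, 3 fell and 0 rose, and none of 9 replication-independent genes was called, 1 of which had an unadjusted p under 0.05, while DESeq2 called 1 of the 10. Among the 3 falls in 3’-LEXO, Hist1h4c met the filter only through its control libraries. Among the 3 falls in Trad-KAPA, Hist1h4i met the filter within the controls and not within the iron-loaded libraries. H1fx, the gene that rose in Trad-KAPA, met it only through its iron-loaded libraries. Such genes had to differ in that kit, so these calls are no support for a diet change. The median log2 changes of the tested cluster genes were −0.83 (Trad-KAPA) and −0.76 (3’-LEXO). Those of the replication-independent genes were −0.12 and −0.04, against 0.016 and 0.013 over all genes. Bulk RNA cannot tell fewer cells of a type from less RNA per cell.

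Hist1h4i and Hist2h2be were lower in the iron-loaded livers in both kits. Hist1h4i had 1.63, 1.81 and 2.53 CPM in the control mice and 0.357, 1.02 and 0.791 in the iron-loaded mice in Trad-KAPA, and 6.72, 9.30 and 20.1 against 3.99, 4.29 and 3.82 CPM in 3’-LEXO. The diets did not overlap in either kit, and control mouse 3 was highest in both. The log2 change was −1.50 ± 0.41 in Trad-KAPA (adjusted p = 0.041, edgeR) and −1.65 ± 0.39 in 3’-LEXO (adjusted p = 0.039, edgeR). In Trad-KAPA the control libraries met the filter and the iron-loaded libraries, with 5, 15 and 11 reads, did not. The Trad-KAPA call is therefore no support for a fall, and the values of that kit are a description. The Trad-KAPA call was lost with each of the 6 mice left out in turn (log2 change −1.86 to −1.15). The 3’-LEXO call was lost with each of the mice left out but control mouse 1 (−1.95 to −1.02).

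Hist2h2be, an H2B gene with a transcript of 2620 bases and a poly(A) signal, had 2.84, 3.42 and 2.38 CPM in the control mice and 0.714, 1.30 and 1.29 in the iron-loaded mice in Trad-KAPA, and 4.00, 8.16 and 5.53 against 2.22, 1.86 and 3.36 CPM in 3’-LEXO. No iron-loaded library reached the lowest control library of its kit. It changed by −1.44 ± 0.30 on the log2 scale in Trad-KAPA (adjusted p = 0.019, edgeR) and by −1.30 ± 0.32 in 3’-LEXO (adjusted p = 0.045, edgeR). The Trad-KAPA call was lost without control mouse 1 or 2 (adjusted p = 0.052 and 0.071), and the 3’-LEXO call without control mouse 2 or 3 or iron-loaded mouse 1 or 2 (0.069 to 0.15, edgeR).

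Hist1h2bc fell by 0.70 ± 0.15 on the log2 scale in Trad-KAPA (adjusted p = 0.018, edgeR), from 42.1, 39.9 and 54.3 CPM in the control mice to 30.6, 27.9 and 30.0 in the iron-loaded mice. The call was lost without iron-loaded mouse 2 (adjusted p = 0.054, edgeR). In 3’-LEXO it had 62.5, 119 and 102 CPM in the control mice and 77.6, 59.8 and 54.9 in the iron-loaded mice, with a log2 change of −0.62 ± 0.23 that did not pass (adjusted p = 0.13, edgeR). With no expression filter edgeR called this 3’-LEXO change (adjusted p = 0.0073). The diets were apart in Trad-KAPA and overlapped in 3’-LEXO through control mouse 1. The change was not shown to differ between the kits (interaction log2 0.08 ± 0.29, unadjusted p = 0.78, edgeR).

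The H4 genes with almost no Trad-KAPA reads could be tested by diet only in 3’-LEXO. Hist1h4c, with the 17, 11 and 14 against 1, 1 and 4 reads given above, changed by −2.52 ± 0.60 on the log2 scale (adjusted p = 0.041, edgeR), and the call was lost with each mouse left out but iron-loaded mouse 3 (adjusted p = 0.087 to 0.13, edgeR). Its control libraries met the filter and its iron-loaded libraries did not, so the call is no support for a fall and the counts are a description. Hist4h4 changed by −1.86 ± 0.50 and missed the threshold (adjusted p = 0.057, edgeR), with no overlap between the diets. Hist4h4 too met the filter within the controls and not within the iron-loaded libraries, so its values are a description. DESeq2 called its fall (adjusted p = 0.024), as did edgeR without the filter (adjusted p = 0.00057). In the paper's RT-qPCR of the same RNA, however, Hist4h4 was higher in the iron-loaded livers, and the paper matched that result to neither kit. In Trad-KAPA DESeq2 also called a fall of Hist1h2be (log2 change −1.94, adjusted p = 0.041), which had 10, 24 and 23 reads in the control mice and 2, 8 and 5 in the iron-loaded mice and did not pass edgeR's filter. Hist3h2a, Hist2h3c2, Hist2h4, Hist1h1e and Hist1h4h had log2 changes of −0.49, −0.79, −0.76, −0.36 and −0.30 in 3’-LEXO and did not pass. Of the 11 cluster genes tested in 3’-LEXO, Hist1h1c was the only one with a value above 0.

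Hist1h1c was higher in every iron-loaded library than in any control library of its kit, but it did not pass the test in either. It had 25.2, 23.2 and 35.8 CPM in the control mice and 55.8, 38.5 and 38.7 in the iron-loaded mice in Trad-KAPA (log2 change 0.57 ± 0.21, adjusted p = 0.087, edgeR). In 3’-LEXO the values were 83.1, 74.4 and 99.9 against 169, 120 and 132 CPM (0.64 ± 0.18, adjusted p = 0.066, edgeR). Iron-loaded mouse 1 was highest in both kits. DESeq2 called the 3’-LEXO change (adjusted p = 0.025), and without control mouse 3 edgeR called the Trad-KAPA change (adjusted p = 0.038).

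The sums of the cluster families followed their leading genes, with Hist1h1c giving nearly all of the H1 sum. In Trad-KAPA the cluster H1 genes summed to 24.4 to 36.9 CPM in the control mice and 39.2 to 56.5 in the iron-loaded mice, the H2B genes to 46.0 to 59.2 and 30.3 to 32.2 CPM, and the H4 genes to 2.78 to 6.00 and 1.64 to 2.66 CPM. In 3’-LEXO the H1 genes summed to 81.0 to 106.9 and 126.5 to 177.2 CPM, the H2B genes to 68.0 to 127.6 and 59.1 to 80.9 CPM, and the H4 genes to 17.7 to 32.5 and 8.73 to 10.9 CPM. The H1 and H4 sums did not overlap between the diets in either kit, and the H2B sums overlapped in 3’-LEXO. The H2A sums were 12.8 to 14.2 and 8.59 to 10.5 CPM in 3’-LEXO, most of it Hist3h2a, and overlapped in Trad-KAPA, where they were at 1.34 CPM or less. The H3 sums were 3.94 to 8.79 and 3.09 to 4.53 CPM in 3’-LEXO and overlapped between the diets. These sums are descriptions, and no test was made on them. The sum of all 53 cluster genes was 75.9 to 103.8 CPM in the control and 73.0 to 91.8 in the iron-loaded mice in Trad-KAPA, with overlap between the diets. Without Hist1h2bc and Hist1h1c the sum of the other 51 was 8.52 to 13.7 CPM in the control and 5.50 to 6.76 CPM in the iron-loaded mice in Trad-KAPA. In 3’-LEXO it was 51.3 to 68.6 and 31.6 to 35.6 CPM, so that the iron-loaded mice were lower without overlap in both kits. Hist1h2bc and Hist1h1c were set apart after their reads were seen, and Hist1h1c was the only cluster gene tested in 3’-LEXO with a positive log2 change. Hist1h1e, the H1 gene with the next most reads, had 6.08 to 10.2 and 4.55 to 7.82 CPM in 3’-LEXO, which overlapped.

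**Figure D4:**
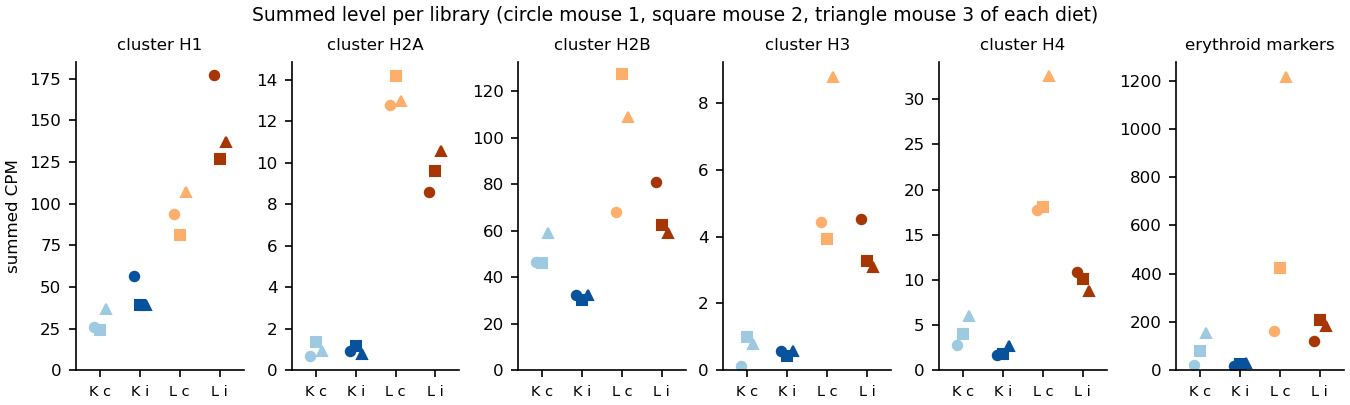
Summed CPM of the listed cluster genes of each histone family, and of 7 erythroid marker genes, in each library, with 1 symbol per mouse and axes that start at 0 and differ between panels. Cluster H1 is higher and cluster H4 lower in the iron-loaded livers of both kits without overlap, and control mouse 3 (triangle) is highest of the controls in cluster H4 and in the erythroid markers in both kits.

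Among the replication-independent genes H1fx rose in Trad-KAPA, from 0.362, 0.335 and 0.0723 CPM in the control mice to 1.79, 2.46 and 1.80 CPM in the iron-loaded mice. The diets were well apart, with 6, 5 and 1 reads against 25, 36 and 25, and the log2 change was 2.84 ± 0.45 (adjusted p = 0.0077, edgeR). The call held with each mouse left out in turn, with a log2 change of 2.46 to 3.15. Only the iron-loaded libraries met the filter, so the call and its stability are no support for a rise and the values are a description. In 3’-LEXO H1fx did not pass the filter, and its counts were 10, 9 and 3 in the control mice and 6, 23 and 16 in the iron-loaded mice, with iron-loaded mouse 1 within the control range. The interaction log2 value was −1.56 ± 0.85 (unadjusted p = 0.090, edgeR). H1fx overlaps the antisense gene Gm5577 (chr6:87980883-88005471, + strand), which had 2 reads or fewer in each library.

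The other replication-independent genes did not pass the diet test in either kit. H3f3b had 92.6, 75.3 and 77.3 CPM in the control mice and 135, 99.9 and 100.3 in the iron-loaded mice in Trad-KAPA, a log2 change of 0.38 ± 0.13 (adjusted p = 0.084, edgeR). Its 3’-LEXO values were 259, 229 and 231 against 437, 306 and 340 CPM, a log2 change of 0.53 ± 0.16 (adjusted p = 0.086, edgeR), which DESeq2 called (adjusted p = 0.035). Iron-loaded mouse 1 was highest in H3f3b and in H1f0 in both kits, and it had the lowest hepatocyte marker sum of each kit (116073 and 45636 CPM). Over the mice left out in turn, the log2 change of H3f3b was 0.26 to 0.46 in Trad-KAPA and 0.39 to 0.61 in 3’-LEXO. H2afv had 19.9, 17.6 and 23.9 against 11.1, 16.5 and 16.6 CPM in Trad-KAPA (−0.54 ± 0.21, adjusted p = 0.10, edgeR) and overlapped between the diets in 3’-LEXO (−0.44 ± 0.21). H2afj had log2 changes of −0.33 ± 0.15 and −0.34 ± 0.16 in the 2 kits, H1f0 of 0.08 ± 0.11 and 0.39 ± 0.18, H2afz of −0.08 ± 0.26 and −0.57 ± 0.49, and H2afy of −0.16 ± 0.12 and −0.16 ± 0.15. H3f3a and H2afx were at 0.16 or less in size in both kits.

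**Figure D5:**
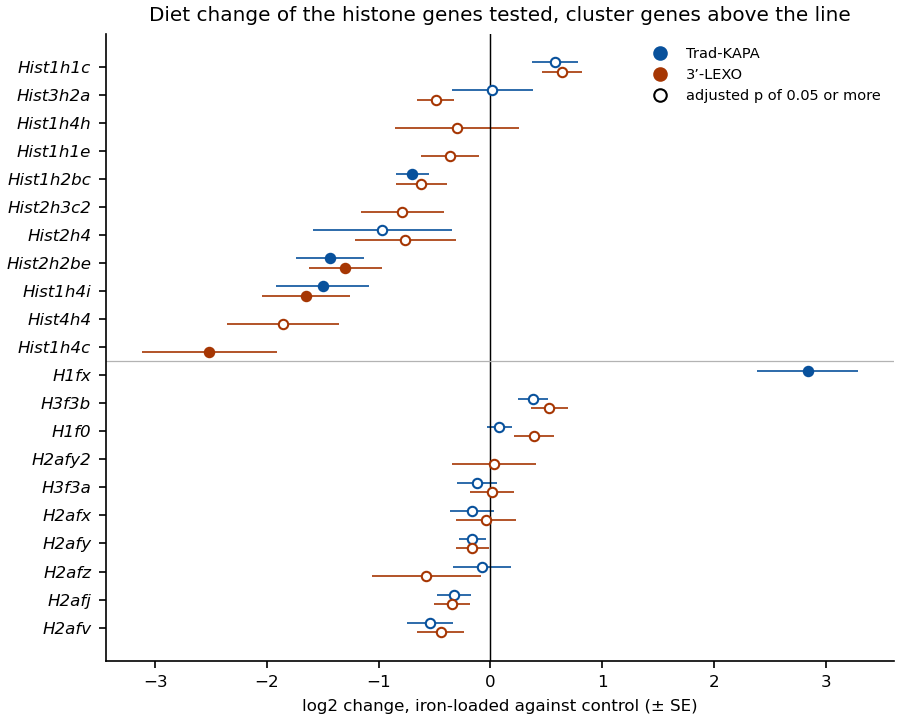
Log2 change of iron-loaded against control livers with its SE for the histone genes tested in Trad-KAPA (blue) and 3’-LEXO (brown), cluster genes above the grey line, with filled points for adjusted p under 0.05. Hist1h4i and Hist2h2be are filled and left of 0 in both kits, Hist1h2bc in Trad-KAPA and Hist1h4c in 3’-LEXO, and H1fx is filled and right of 0 in Trad-KAPA, the kit in which it was tested.

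The separation of the diets by library, without a model, was also set beside the share over all genes. In Trad-KAPA 1 of the 6 cluster genes tested had all iron-loaded libraries above all controls (Hist1h1c) and 3 had them all below (Hist2h2be, Hist1h4i and Hist1h2bc), against 24.7% and 16.6% of all genes tested. Of these 3, Hist1h4i met the Trad-KAPA filter within the controls and not within the iron-loaded libraries, so its separation there is no support for a fall. In 3’-LEXO 1 of 11 was above (Hist1h1c) and 5 were below (Hist2h2be, Hist4h4, Hist3h2a, Hist1h4i and Hist1h4c), against 18.5% and 12.8%. Of the 5, Hist4h4 and Hist1h4c met the filter within the controls and not within the iron-loaded libraries, so their separation is no support for a fall. Of the 9 replication-independent genes tested in each kit, H1fx and H3f3b were above and H2afj and H2afv below in Trad-KAPA, and H3f3b and H1f0 were above in 3’-LEXO. H1fx met the filter only through its iron-loaded libraries, so its separation is no support for a rise.

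The test of the difference between the diet changes of the kits called 0% of the 14384 genes, and 0 of the 22 histone genes had an unadjusted p under 0.05 with edgeR or with DESeq2. With the mouse as a block 3 had one, H1f0, H1fx and Hist1h2be, with adjusted p of 0.63 to 0.67 (edgeR). No histone gene was thus shown to respond to the diet differently by kit. With Hist1h4c at 0 in Trad-KAPA, its interaction cannot be estimated. The kits used the same 6 RNAs, so that a diet change seen in both is not evidence from separate mice.

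Genes that act on histone mRNA or carry histones were looked up as lists. Of 17 genes of histone mRNA 3’ end formation, 16 were tested in each kit. In Trad-KAPA 4 of the 16 were called, beside 17.1% of all genes. Of these 2 rose, Npat (log2 change 0.66 ± 0.14), the activator of histone gene transcription, and Casp8ap2 (0.90 ± 0.20), which binds the processing machinery. The other 2 calls fell, Lsm11 (−0.76 ± 0.17), a part of the U7 snRNP that guides the cut of the histone mRNA, and Ncbp2 (−0.61 ± 0.15), which binds the mRNA cap. In 3’-LEXO 0 were called, beside 6.1% of all genes. The medians of the list were −0.06 and −0.11. Slbp, whose protein binds the stem-loop, had 8.67 to 9.71 CPM in the control and 6.18 to 9.22 in the iron-loaded mice in Trad-KAPA and did not pass (−0.43 ± 0.19, adjusted p = 0.16, edgeR). Of 24 histone chaperone genes, 23 were tested in each kit. In Trad-KAPA 6 of the 23 were called, again beside 17.1% of all genes. Of these 4 rose, with Dek (0.62 ± 0.13), Nap1l1 (0.57 ± 0.12) and Atrx (0.50 ± 0.11) among them, and 2 fell, 1 of which was Vps72 (−0.44 ± 0.12). In 3’-LEXO 0 were called. Of the 9 histone genes outside the rule 3 were listed (Hp1bp3, Cenpa and Gm10320), and none of the 2 tested by diet in Trad-KAPA and 3 in 3’-LEXO was called.

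Cluster histone genes are used when DNA is replicated, so genes of replication and mitosis were set beside them. Of 22 such genes, 20 passed the filter in Trad-KAPA and 21 passed it in 3’-LEXO. The same 3 rose in each kit and 0 fell, beside 8.77% of all genes higher in Trad-KAPA and 3.17% in 3’-LEXO. Ccne1, which encodes cyclin E1, had 1.09, 1.21 and 0.289 CPM in the control mice and 4.71, 5.74 and 5.75 in the iron-loaded mice in Trad-KAPA, a log2 change of 2.56 ± 0.37, and changed by 1.63 ± 0.37 in 3’-LEXO. In Trad-KAPA Ccne1 met the filter within the iron-loaded libraries and not within the controls, so its call in that kit is no support for a rise. Ccne2, the gene of cyclin E2, changed by 1.24 ± 0.28 and 1.67 ± 0.31, and Cdt1, which licenses replication origins, by 0.92 ± 0.18 and 0.82 ± 0.16. None of the 6 markers of dividing cells was called in either kit, and Top2a, the topoisomerase of dividing cells, had log2 changes of 0.07 ± 0.66 and −0.45 ± 0.54. The sum of these markers was highest of the control mice in mouse 2 in both kits, at 19.1 and 41.4 CPM, and this mouse also had the most cluster genes with a read, 27 and 36. The other mice did not all follow this order. Iron-loaded mouse 1 had the lowest sum of its diet in Trad-KAPA, 10.2 CPM, but the most genes, 18. In 3’-LEXO it was lowest of its diet in both, at 16.7 CPM and 25 genes, while iron-loaded mouse 3 had the highest sum of all, 43.4 CPM, with 27 genes. The part of cell division in the histone values was not tested.

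Markers of other cells moved in places beside the cluster genes. The 7 erythroid markers, 4 of them globin genes, summed to 22.1, 78.9 and 154 CPM in the control mice and 16.9 to 29.6 CPM in the iron-loaded mice in Trad-KAPA, and to 164, 423 and 1217 against 120 to 209 CPM in 3’-LEXO. None was at 0 in all libraries of a group. Of the 5 tested, 1 fell in Trad-KAPA (Slc4a1, −3.26 ± 0.76) and 0 in 3’-LEXO, with medians of −1.92 in both kits. Control mouse 3, the highest in these markers, was also the highest of the controls in Hist1h4i and in the summed H4 genes in both kits. The part of erythroid RNA in the H4 values was not tested. Without control mouse 3 the log2 changes of Hist1h4i were −1.27 in Trad-KAPA and −1.02 in 3’-LEXO, which did not pass. Leaving this mouse out does not take out the erythroid RNA, since control mouse 2 also stood above every iron-loaded mouse in these markers. Of the 6 macrophage and Kupffer cell markers 1 rose in Trad-KAPA (Vsig4, 0.68 ± 0.12) and 0 in 3’-LEXO, and 0 hepatocyte and 0 lymphocyte markers were called in either kit.

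Reads of near-identical genes limit what can be read of single cluster genes. Over the listed cluster genes a median of 45.8% of the 50-base windows of the transcripts occurred in transcripts of other genes, and 22 of the 53 had over 50% shared, while the 10 replication-independent genes had a median of 8.33%. The 14 cluster genes not analysed here had a median of 87.6%. Since the authors counted uniquely mapped reads, reads that fit several places were not counted, and low counts of such genes do not show low expression. Of the genes called by diet, Hist2h2be shared 0% of its windows, Hist1h4c 19.6%, Hist1h4i 28.9% and Hist1h2bc 30.6%, and H1fx shared 14.0%, all with its antisense gene.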

How the data were processed

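The authors sequenced single-end 50-base reads, mapped them with STAR 2.5.3a to mm10 (GRCm38) and deposited counts of reads uniquely mapped to the exons of each gene. The counting program and annotation release are not given in the sources used here. The deposited counts were used as they are, and CPM is a count scaled to 1000000 counted reads of the library. Of 27022 gene IDs, 26940 matched GENCODE M21. Tests used edgeR 4.0.16 (TMM, filterByExpr, quasi-likelihood F test) and DESeq2 1.42.0 as an alternative, in R 4.3.3, with Benjamini-Hochberg adjustment over all genes tested and a threshold of 0.05. The fits were first tested on simulated counts. Stem-loops, poly(A) signals and shared 50-base windows were read from the GENCODE transcripts with Python 3.11.15.

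Libraries with the same number come from the same mouse in both kits, and their deviations from the group means had correlations of 0.404 to 0.745 over 10326 genes. The named genes were the members called by diet, the 6 cluster genes with the largest and the 6 with the smallest kit ratios among those called, the replication-independent genes that passed the filter in both kits, the 5 members with the most CPM per kit and Hist4h4, and of each list at most 4 members called by diet. H2afy2, Hist1h2ba, Hist2h4, Hist1h2be, Slbp, Top2a, Hp1bp3, Cenpa, Gm10320, Trim17 and Gm5577 were named after their values were seen. The members and lists were chosen with earlier results of these data known. P-values of the diet tests measure the spread between 3 mice of 1 cage per diet. Those of the main kit comparison measure the spread between libraries of the same kit and diet.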

Additional observations from a re-analysis of the deposited data

How the results depend on the processing

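Of the values of single named genes under other settings, 406 kept their direction and side of the threshold, 42 lost the call, 9 gained it and 9 turned. Turned values came from Trad-KAPA counts per kb, in the order of merged exons and the longest transcript: Hist1h2bc −0.79 and −0.41, H2afz −0.46 and −0.81, H2afx −1.40 and −1.02, and, with merged exons alone, Hist1h4i −0.00081 and Hist1h4h −0.069. The ninth was H1f0 by diet in Trad-KAPA, at −0.00078 without iron-loaded mouse 1, in a range of −0.00078 to 0.12 over the mice left out. Per kb of merged exons, 5 cluster genes were higher and 2 lower in 3’-LEXO, and 4 replication-independent genes higher and 3 lower. With the replicate block added to this fit, which was added once the data had been seen, these were 6, 2, 4 and 4. Per kb of the longest transcript 1 cluster gene and 4 replication-independent genes were lower. Per kb, the medians above that of all genes were 0.35 for cluster and 0.14 for replication-independent genes.

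For the settings of this paragraph no share over all genes is given, so its counts are descriptions and no result about the members. With no expression filter 17 cluster genes were higher and 1 lower by kit, 2 members rose and 5 fell by diet in Trad-KAPA, and 1 rose and 6 fell in 3’-LEXO. DESeq2 gave 1 cluster gene lower by kit and 2 members higher by diet in 3’-LEXO, and library totals without TMM gave 1 higher there. With 10 M counts drawn per library 1 member fell by diet in 3’-LEXO, and replication-independent genes with a read differed by 0.17 per mouse between the kits. With at least 5 reads asked for, 3.0 more cluster genes were detected in 3’-LEXO.

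The replicate block left 0 of the 3 falls in 3’-LEXO and changed no other call of a member. Across diets the numbers mark no pair, since deviations of same-numbered libraries had correlations of −0.153 to 0.0738, so this says nothing of the size of the changes.

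With each mouse left out in turn, 10 to 11 cluster genes were higher and 0 to 1 lower by kit, and 5 to 7 replication-independent genes were higher and 0 to 1 lower. By diet 1 to 2 members rose and 1 to 2 fell in Trad-KAPA (1 without control mouse 2 or iron-loaded mouse 2), and 0 rose and 0 to 3 fell in 3’-LEXO, with 0 falls without control mouse 2 or 3 or iron-loaded mouse 1 or 2. The interaction called 0 members throughout.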
